A study of Mus musculus with 9 samples.

Results

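Hippocampal RNA of mice given KA was compared with that of sham mice across all genes of the deposited table. KA is read here as kainic acid, and the series title speaks of epileptic mice. The comparison used 6 of the 9 libraries of the series, chosen by their labels alone: KA replicates 1, 2 and 3 and sham replicates 1, 2 and 3. Each KA library came from a wild-type mouse 30 days after a KA injection, and each sham library from a wild-type mouse of the sham surgery arm, 30 days after the control treatment. The 3 remaining libraries, from mice given KA together with NBP (the butylphthalide of the series title), entered an alternative fit only. The mice had been assigned to the groups at random, and each library stands for 1 mouse. Strain, age, sex, dose and the site of injection are not given in the sources used here. All cells of the dissected tissue were sequenced together, so for every gene below fewer or more cells of a type and less or more RNA per cell cannot be told apart.

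Kainic acid opens the kainate and AMPA classes of glutamate receptor and drives hippocampal neurons into seizure discharge. Pyramidal neurons of CA3 and CA1 and many inhibitory neurons are known to be vulnerable to it, while granule cells of the dentate gyrus largely survive and can sprout new axons. In the weeks that follow, microglia, the resident macrophages of the brain, and astrocytes, which clear glutamate and potassium, take on reactive states, and recurrent seizures can set in.

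The 6 libraries held 16109494 to 16374637 estimated counts over 18474 protein-coding genes, and 14570 genes had enough counts to be tested. Levels are given as CPM, counts scaled to the effective size of each library, and a count of 0 in a library allows up to 0.183 to 0.186 CPM. These limits, like the intervals given for ratios of counts, reflect counting error alone. Along the first principal component of log2 CPM, which held 80.5% of the variance, the KA libraries lay at -51.9 to -41.5 and the sham libraries at 41.0 to 50.1, and the second held 6.84%. KA libraries differed more among themselves than sham libraries did: set against each other in pairs, they exceeded sampling noise (a chi-square to degrees of freedom ratio of 1) with ratios of 7.03 to 14.8 in KA and 3.17 to 4.59 in sham. The labelled tissue carried its markers: all 6 pan-neuronal genes were present, with summed levels of 3614 to 4122 CPM in KA and 5167 to 5514 CPM in sham, and the 4 dentate granule markers summed to 355 to 387 CPM in KA and 375 to 434 CPM in sham.

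A large share of the transcriptome differed between the groups. By edgeR's quasi-likelihood test, 6372 of the 14570 tested genes had a Benjamini-Hochberg adjusted p under 0.05, which is 43.7% and the threshold for a call throughout. Of all tested genes 24.3% (3539) were higher and 19.4% (2833) lower in KA, and every count of a gene group below is to be read against these shares. The median log2 fold change over all tested genes was 0.01, and the 5th and 95th percentiles were -0.64 and 1.67. Large changes ran mostly upward: 1427 genes (9.79%) rose 2-fold or more, and 228 (1.56%) fell 2-fold or more. The 3 KA and 3 sham libraries did not overlap for 8234 genes (56.5%).

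**Figure D1:**
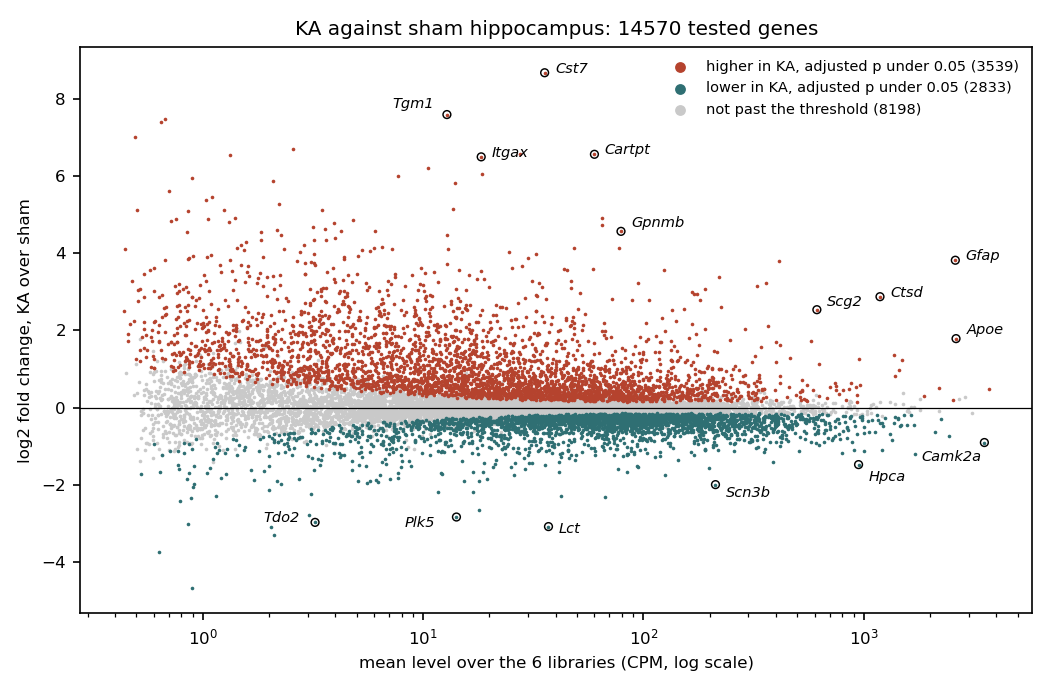
Log2 fold change (KA over sham) of each tested gene against its mean level over the 6 libraries in CPM on a log scale; red points are called higher in KA, green points lower, grey points are not past the threshold. The rises reach above 8 on the log2 scale and the falls mostly stay above -3, and falls are densest among abundant genes.

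The direction of change went with how abundant a gene was and how long its locus is. Among the 2525 genes above 100 CPM, 40.3% were lower and 16.7% higher in KA. Among the 2087 genes between 1 and 5 CPM, 5.89% were lower and 32.0% higher. By genomic span, 42.0% of the 555 genes over 300 kb were lower and 17.3% higher, with a median log2 fold change of -0.20, whereas 11.2% of the 3288 genes under 10 kb were lower and 27.1% higher. The part of counting depth in the trend with level was not tested. By autosome, 17.8% (chromosome 12) to 29.2% (chromosome 1) of tested genes were higher.

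**Figure D2:**
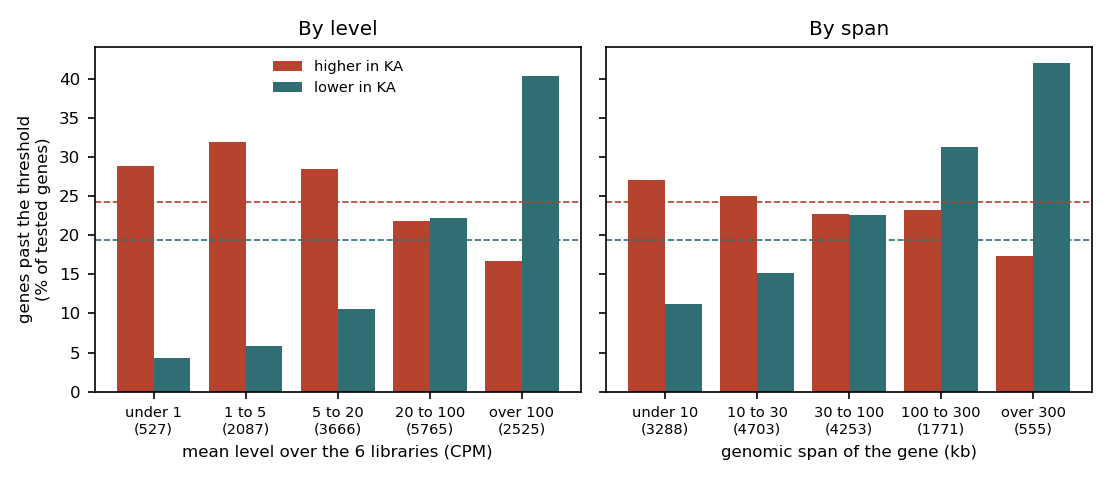
Percent of tested genes called higher (red) or lower (green) in KA by mean level over the 6 libraries (left, CPM) and by genomic span (right, kb); the number of genes is in brackets and dashed lines mark the share over all tested genes. The share of lower genes is 4.36% in the lowest level bin and 40.3% in the highest, and 11.2% in the shortest span bin and 42.0% in the longest.

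The largest rises in fold were those of genes nearly silent in sham. Cst7, which encodes cystatin F, an inhibitor of lysosomal cysteine proteases (chromosome 2, 150412335 to 150420864 on GRCm39), measured 66.4, 68.3 and 78.7 CPM in KA replicates 1 to 3 and 0.0624, 0.187 and 0.251 CPM in sham. Its log2 fold change was 8.67 (SE 0.20, adjusted p = 1.28e-07), and every KA library lay far above every sham library. Itgax, the alpha chain of an integrin of dendritic cells and activated microglia, stood at 42.3, 34.5 and 32.2 CPM in KA and 0.0624, 0.685 and 0.440 CPM in sham (log2 fold change 6.49, SE 0.30). Clec7a, the beta-glucan receptor Dectin-1 of phagocytes, stood at 39.1, 40.3 and 30.2 CPM in KA and 0.562, 0.809 and 0.251 CPM in sham (6.06, SE 0.25). All 3 are genes of phagocytes. Non-overlap of the groups was a condition for naming the largest rises and falls and the 8 genes of smallest p. It held for 56.5% of all tested genes. Not all of the largest rises belong to that class. Tgm1, a transglutaminase that crosslinks proteins in the skin barrier, rose by 7.59 on the log2 scale (SE 0.60), and Ccn5, a secreted matricellular protein, by 6.22 (SE 0.57). Serpinf2, the inhibitor of plasmin, rose by 5.81 (SE 0.39), and the chemokine gene Cxcl10 by 5.99 (SE 0.45). Trh and Cartpt, precursors of secreted peptides, rose by 6.58 (SE 0.47) and 6.56 (SE 0.73). For genes with almost no sham counts the fold is uncertain: Timp1, which blocks matrix metalloproteinases, had 251 counts over the KA libraries and 2 over the sham libraries, a ratio of 125 with a 95% counting interval from 34.2 to 1038.

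The largest falls were smaller in fold than the largest rises. Lct, the lactase gene (chromosome 1, 128212493 to 128256055 on GRCm39), measured 14.5, 6.27 and 2.59 CPM in KA and 61.8, 57.5 and 80.0 CPM in sham (log2 fold change -3.08, SE 0.42, adjusted p = 0.000507). KA replicate 1 was highest and KA replicate 3 lowest of the KA mice, and all 3 lay below every sham library. Plk5, a kinase-related gene of neurons, was likewise highest in KA replicate 1, with 7.15, 1.60 and 1.61 CPM in KA and 22.03, 26.2 and 26.4 CPM in sham (-2.84, SE 0.44). Dsp, the desmosomal protein desmoplakin that marks dentate granule cells, stood at 25.8, 10.4 and 7.16 CPM in KA and 70.0, 56.5 and 84.9 CPM in sham (-2.28, SE 0.38). Other genes fell evenly in all 3 KA mice. Mdga1, a membrane protein that restrains synaptic adhesion, stood at 21.6, 27.3 and 18.5 CPM in KA and 106, 106 and 123 CPM in sham (-2.31, SE 0.13). Scn3b, an auxiliary subunit of voltage-gated sodium channels, stood at 92.0, 96.5 and 67.0 CPM in KA and 329, 308 and 383 CPM in sham (-1.996, SE 0.14). Other large falls were those of Tdo2 (-2.97, SE 0.56), which breaks down tryptophan, Rtl3 (-2.78, SE 0.26), Ccbe1 (-2.67, SE 0.22), known for its part in lymphatic growth, and Rerg (-2.19, SE 0.15), a Ras-like GTPase.

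Ranked by the change in CPM, which weighs abundant messages, the rises were led by glial genes and the falls by neuronal genes. Gfap, the intermediate filament protein of astrocytes (chromosome 11, 102778162 to 102791368 on GRCm39), measured 4387, 4561 and 5662 CPM in KA and 316, 391 and 329.6 CPM in sham (log2 fold change 3.82, SE 0.13, adjusted p = 7.87e-07). Apoe, the main lipoprotein of glia, averaged 4073 ± 450 CPM in KA and 1182 ± 19.8 CPM in sham (SD, n = 3 mice each, as in every mean below). Ctsd, a lysosomal aspartic protease, averaged 2088 ± 185 CPM in KA and 285 ± 15.2 CPM in sham. The others of the 10 largest rises were Slc1a2, Clu, Cst3, Ctsb and Scd2, which are strongly expressed by glia or common to many cells, and 2 neuronal genes, Hpcal4 and Scg2. Slc1a2, the astrocytic glutamate transporter, rose by 0.48 on the log2 scale (SE 0.09), at 4308 ± 533 CPM in KA and 3089 ± 134 CPM in sham. Among the falls Camk2a, the kinase of postsynaptic plasticity, measured 2391, 2609 and 2377 CPM in KA and 4554, 4389 and 4879 CPM in sham (-0.91, SE 0.07, adjusted p = 2.63e-05). Hpca, the calcium sensor hippocalcin of pyramidal cells, measured 467, 558 and 478 CPM in KA and 1356, 1265 and 1565 CPM in sham (-1.48, SE 0.10). Ddn, a dendritic protein, stood at 1031 ± 82.8 CPM in KA and 2380.3 ± 151 CPM in sham. Ncdn, Kif5a, Ppp3ca, Camk2b, Gria1, Atp2b1 and Syt1, all of which act in neuronal signalling or transport, complete the 10 largest falls, with log2 fold changes from -1.12 (Gria1) to -0.62 (Kif5a).

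**Figure D3:**
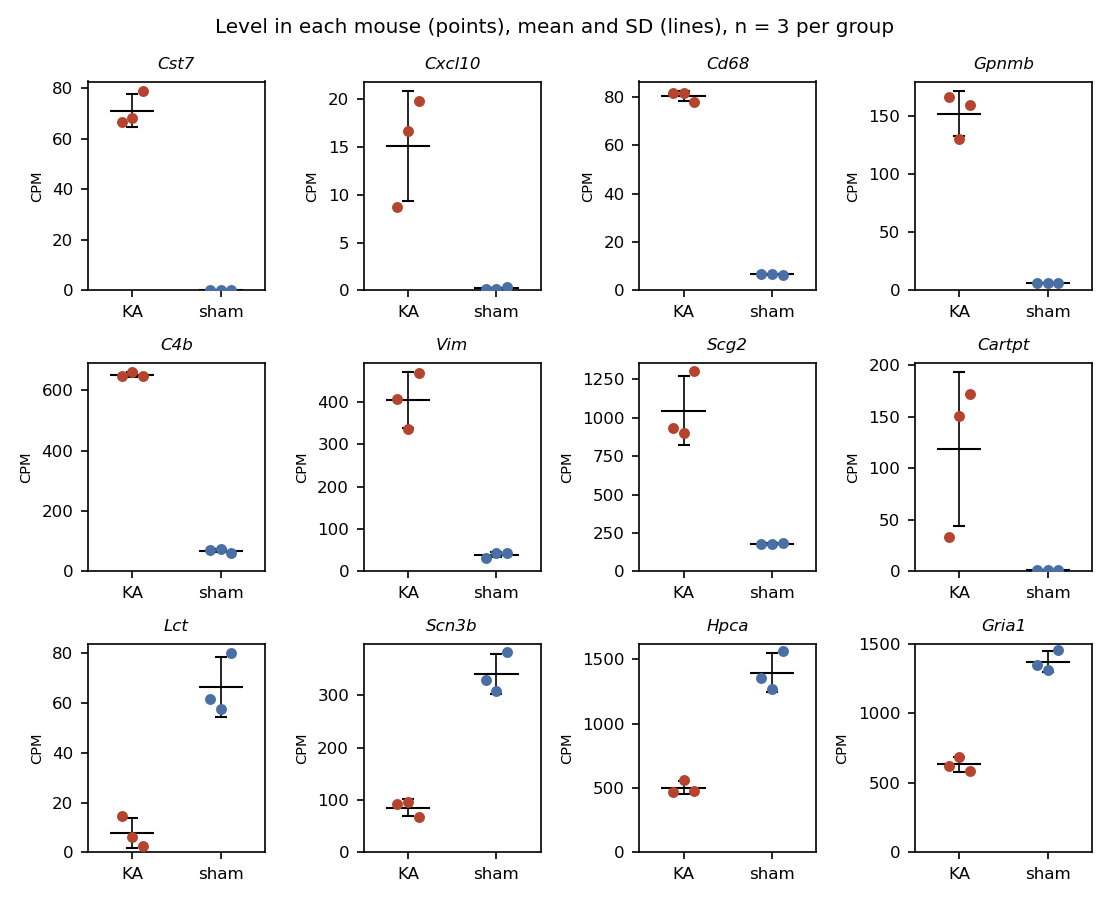
Level in CPM of 12 of the genes described, in each KA mouse (red) and each sham mouse (blue), with the mean and SD of 3 mice as lines; each axis starts at 0. The KA and sham mice do not overlap in any of the 12 genes, which was a condition by which most of them were chosen. Cartpt and Lct vary most among the KA mice.

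Nearly all listed genes of microglia and macrophages rose. Gene lists and their members, here and below, were chosen with earlier results of these data known. Their counts therefore describe the chosen members and are no independent test. All 24 tested genes of the list of microglial surface and identity genes were higher in KA, 21 of them at least 2-fold, with a median log2 fold change of 1.88. Of 26 phagocyte activation genes 25 were higher, with a median of 3.07. Cd68, a glycoprotein of phagocyte lysosomes and the gene with the smallest p of all, measured 81.5, 81.6 and 77.9 CPM in KA and 6.74, 6.79 and 6.35 CPM in sham (log2 fold change 3.60, SE 0.07, adjusted p = 9.92e-08). Every KA mouse lay far above every sham mouse. Gpnmb, a glycoprotein of lipid-laden macrophages, measured 166, 129.8 and 159.7 CPM in KA and 6.62, 6.47 and 6.16 CPM in sham (4.56, SE 0.12). Trem2, a lipid-sensing receptor of microglia, measured 118, 103 and 107 CPM in KA and 7.80, 9.46 and 10.2 CPM in sham (3.58, SE 0.10). Fcrls and Laptm5, known as genes of resident microglia, rose by 2.80 and 2.32 on the log2 scale. The one activation gene without a call was Lpl, which encodes lipoprotein lipase, at 43.4 ± 9.03 CPM in KA and 41.2 ± 3.17 CPM in sham.

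The lysosome changed unevenly. Of 47 lysosomal hydrolases 38 were higher and 1 lower (2 lower without sham replicate 2, KA replicate 2 or KA replicate 3), with a median log2 fold change of 0.84, while the subunits of the proton pump that acidifies the organelle had 6 of 20 higher and 3 lower and a median of 0.07. Autophagy genes had 4 of 30 higher and 6 lower, with a median of -0.02. Ctsl, a cysteine protease, measured 271, 263 and 287 CPM in KA and 70.4, 74.3 and 72.7 CPM in sham (log2 fold change 1.92, SE 0.06). Hexa, which degrades gangliosides, measured 136, 134 and 141 CPM in KA and 45.8, 45.3 and 44.3 CPM in sham (1.61, SE 0.05). Ctsz rose by 2.78 (SE 0.08). Among the pump genes Atp6v0e rose by 0.85 (SE 0.10) and Atp6v1g2, the form of its subunit enriched in neurons, fell by 0.53 (SE 0.06). Atp6v0d2, a macrophage and osteoclast form, had 69 counts in KA and 1 in sham, a ratio of 68.7 with an interval from 11.9 to 2753. Tfeb, the transcription factor known to switch on lysosomal genes, rose by 0.74 (SE 0.13), and Gabarap by 0.34 (SE 0.05), while Rb1cc1 and Atg13, parts of the complex that starts autophagy, fell by 0.46 and 0.45. The pump's count of higher genes dropped to 3 without any 1 sham replicate, without KA replicate 2 and in the fit with all 9 libraries. The autophagy count of lower genes dropped to 2 without sham replicate 1 and with all 9 libraries, and to 3 without sham replicate 3.

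Signalling molecules of innate immunity followed. Of 21 chemokine ligands 13 were higher and 4 lower (2 lower without sham replicate 1), of 10 Toll-like receptors 9 were higher, and of 21 Fc, C-type lectin and Siglec receptors 12 were higher. Ccl6 stood at 24.5 ± 2.36 CPM in KA and 1.10 ± 0.416 CPM in sham, Cxcl16 at 9.24 ± 0.342 CPM in KA and 0.833 ± 0.141 CPM in sham, and Ccl9 at 8.84 ± 0.935 CPM in KA and 1.54 ± 0.380 CPM in sham. Each of these chemokines, which attract leukocytes, was separated between groups by far more than the spread among mice. Tlr2, a receptor for bacterial lipopeptides, measured 22.4, 22.1 and 27.0 CPM in KA and 0.749, 2.93 and 1.76 CPM in sham (log2 fold change 3.71, SE 0.30). Tlr7 and Tlr13, endosomal sensors of RNA, rose by 1.65 and 2.04, and Tlr3 by 0.95. Fcgr3, a receptor for immunoglobulin G, and Fcer1g, the signalling chain it shares with other receptors, rose by 2.38 and 2.60. Siglecf, a lectin that binds sialic acid, rose by 3.45 (SE 0.25). Of 16 inflammasome and interleukin 1 genes 12 were higher, among them the adaptor Pycard (2.55, SE 0.19), the pore former Gsdmd (1.42, SE 0.20), the kinase Irak4 (1.73, SE 0.18) and Il33 (1.12, SE 0.14), a nuclear cytokine of glia.

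Complement, a cascade of proteins that tag targets for uptake, had 18 of 28 genes higher and 2 lower (none lower without sham replicate 1, sham replicate 3 or KA replicate 3, 1 without KA replicate 2), with a median log2 fold change of 1.39. C4b measured 647, 662 and 648 CPM in KA and 70.3, 74.9 and 62.4 CPM in sham (log2 fold change 3.24, SE 0.08, adjusted p = 1.28e-07). Its near-identical copy C4a may share reads with it. The receptor C3ar1 rose by 3.16. Of 19 MHC and antigen presentation genes 18 were higher and none lower, with a median of 2.10. B2m, the light chain of class I molecules, measured 215, 267 and 218 CPM in KA and 39.1, 54.3 and 54.2 CPM in sham (2.25, SE 0.14). H2-D1, a class I heavy chain whose reads relatives of the gene may share, stood at 261 ± 25.0 CPM in KA and 44.5 ± 10.5 CPM in sham. Nlrc5, the transactivator of class I genes, rose by 2.59 (SE 0.20), and Ctss, the protease that prepares class II molecules for peptide, by 2.59 (SE 0.13). Psmb8 and Psmb9, catalytic subunits of the immunoproteasome that cuts peptides for class I, rose by 2.14 and 2.10, while of all 46 proteasome subunits 5 were higher and 2 lower (10 and 1 when scaled by library totals alone, and 1 lower without any 1 sham replicate or KA replicate 1).

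Markers of blood leukocytes were at low levels. The 5 T cell markers in the table summed to 2.84 to 5.14 CPM in KA and 0.188 to 0.933 CPM in sham, and Cd8a, the co-receptor of cytotoxic T cells and the only one with enough counts to be tested, measured 2.31, 1.54 and 1.05 CPM in KA and 0.0624, 0.249 and 0.00 CPM in sham (log2 fold change 3.88, SE 0.66). Its adjusted p was 0.00159, and 0.0997 in the fit with all 9 libraries. The monocyte markers summed to 1.42 to 2.36 CPM in KA and 0.125 to 0.691 CPM in sham. Ccr2, a chemokine receptor of monocytes and the one of them with enough counts to be tested, was called higher, at 0.828, 0.737 and 0.741 CPM in KA and 0.125, 0.249 and 0.440 CPM in sham (log2 fold change 1.48, SE 0.44, adjusted p = 0.0242). With replicate 1 or 2 of either group left out, its adjusted p was 0.0554 to 0.0841, by DESeq2 0.0974 and with all 9 libraries 0.314. The B cell markers summed to at most 0.798 CPM in KA and 0.436 CPM in sham with Ms4a1 under 0.2 CPM in every library, and the neutrophil markers to 0.370 to 0.827 CPM in KA and 0.622 to 2.32 CPM in sham. For comparison, the 6 microglial markers, all called higher, summed to 1061 to 1095 CPM in KA and 309 to 367 CPM in sham. The part of the leukocyte markers in the immune results was not tested.

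All 34 tested interferon-stimulated genes were higher in KA, with a median log2 fold change of 2.44. These genes answer interferons through factors that bind a promoter element called ISRE, searched here as GAAA, any 2 bases and again GAAA on both strands in the 250 bases before each RefSeq start on GRCm38.p6. Of the 26 listed genes with a RefSeq promoter, 15 (57.7%) held a match, against 3.18% of the 11549 tested genes with one. The share was 7.80% of the genes at least 2-fold higher and 3.03% of those at least 2-fold lower. A match describes letters only and is no measured binding site. The stretches below are shown for genes that the text follows, read in the direction of the gene, with the matched letters in capitals. Isg15, Ifit1 and Oas3 were chosen after their values were seen, because they hold the element.

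Cxcl10 (chr5:92349073-92349122, minus strand): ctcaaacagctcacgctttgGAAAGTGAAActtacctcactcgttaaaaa

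Bst2 (chr8:71537567-71537616, minus strand): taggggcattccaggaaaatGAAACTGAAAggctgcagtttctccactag

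Gbp2 (chr3:142620584-142620633, plus strand): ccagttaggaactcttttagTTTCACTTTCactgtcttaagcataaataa

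Isg15 (chr4:156200855-156200904, minus strand): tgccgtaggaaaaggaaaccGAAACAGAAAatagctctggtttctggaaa

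Ifit1 (chr19:34640765-34640814, plus strand): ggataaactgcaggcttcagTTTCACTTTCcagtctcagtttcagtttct

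Oas3 (chr5:120777705-120777754, minus strand): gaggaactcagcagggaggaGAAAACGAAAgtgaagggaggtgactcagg

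Gbp2 and Ifit1 carry the element on the opposite strand, where it reads TTTC first. The matches lie 49 to 203 bases before the start, and those of Bst2, Ifit1 and Isg15 have further matches beside or overlapping them. Cxcl10, whose protein attracts activated T cells, measured 8.75, 16.7 and 19.8 CPM in KA and 0.187, 0.187 and 0.314 CPM in sham. Ifit1, which binds foreign RNA, measured 5.85, 18.2 and 9.57 CPM in KA and 1.50, 1.06 and 1.57 CPM in sham (log2 fold change 3.02, SE 0.44). Isg15, a ubiquitin-like protein, measured 2.48, 8.36 and 6.67 CPM in KA and 0.437, 0.560 and 1.19 CPM in sham (2.98, SE 0.52). In both genes KA replicate 2 was highest and KA replicate 1 lowest of the KA mice, without overlap with sham. Bst2, which tethers budding viruses, and Gbp2, a guanylate-binding GTPase, rose by 3.05 (SE 0.24) and 2.63 (SE 0.21), and Oas3, a sensor of double-stranded RNA, by 3.32 (SE 0.49). Over the whole list the median level relative to sham was 2.60 on the log2 scale in KA replicate 2, 2.12 in replicate 3 and 1.61 in replicate 1. Of the factors that act on such elements, Irf7 rose by 3.63 (SE 0.37), Irf8 by 2.59 (SE 0.14) and Irf5 by 1.86 (SE 0.12), and in the deposited annotation of transcription factor families all 6 STAT genes and 5 of 8 interferon regulatory factors were higher and none lower. Socs3, the feedback inhibitor of cytokine signalling, rose by 2.35 (SE 0.25).

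Astrocyte genes rose too, most of all those of the reactive state. Of 42 reactive astrocyte genes 41 were higher, with a median log2 fold change of 2.56, and of 23 general astrocyte genes 19 were higher and 1 lower, with a median of 0.70. Vim, an intermediate filament protein, measured 407, 336 and 469 CPM in KA and 31.9, 42.3 and 42.7 CPM in sham (log2 fold change 3.37, SE 0.15). Serpina3n, a protease inhibitor with near-identical relatives that may share its reads, measured 671, 599 and 1039.5 CPM in KA and 54.0, 55.0 and 58.0 CPM in sham (3.79, SE 0.20). KA replicate 3 was highest of the 6 mice for Gfap, Vim and Serpina3n. Aqp4, the water channel of astrocyte endfeet, rose by 2.11 (SE 0.13), Mlc1 by 0.98 and Acsbg1, an enzyme of fatty acid activation, by 0.93. Glul, the enzyme that turns glutamate into glutamine, was not past the threshold, at 1671, 1695 and 1326 CPM in KA and 1461, 1479 and 1455 CPM in sham (0.09, SE 0.09, adjusted p = 0.447). KA replicate 3 lay below every sham mouse for it and the other KA mice above, and without that replicate Glul was called higher (0.20, adjusted p = 0.0186). S100a6 rose by 2.53 (SE 0.13), and of 19 annexin and S100 genes, which bind calcium, 14 were higher and none lower.

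Many vessel and matrix genes were higher in KA. Of 30 endothelial genes 22 were higher and none lower, with a median log2 fold change of 0.58, and of 17 pericyte and smooth muscle genes 14 were higher, with a median of 0.73. Vcam1 and Icam1, adhesion molecules for leukocytes, stood at 75.6 ± 13.1 and 17.1 ± 1.74 CPM in KA and 29.3 ± 3.06 and 4.00 ± 1.72 CPM in sham. Kdr, the main receptor for vascular growth factor, rose by 0.83 (SE 0.10) and Cav1, the coat protein of caveolae, by 1.66 (SE 0.20), while Ocln, a tight junction protein, was at 14.7 ± 0.336 CPM in KA and 15.1 ± 0.838 CPM in sham. Pdgfrb, the pericyte receptor, rose by 0.70 (SE 0.07) and Tagln, of smooth muscle, by 2.04 (SE 0.26). Collagens had 22 of 42 members higher and 3 lower. Col4a6 and Col4a5, chains of basement membrane collagen, rose by 3.04 and 1.77, whereas Col25a1, a membrane-bound collagen of neurons, measured 41.3, 52.9 and 38.3 CPM in KA and 99.6, 107 and 104 CPM in sham (-1.23, SE 0.11). Timp3, an inhibitor of metalloproteinases, rose by 1.23 (SE 0.06), and the neuronal family members Adamts3 and Adam11 fell by 1.21 and 0.50. Bgn, a small proteoglycan, rose by 2.57 (SE 0.13), and Cd44, the receptor for hyaluronan, by 3.89 (SE 0.38), with 51.1, 32.7 and 83.6 CPM in KA and 4.37, 4.54 and 2.39 CPM in sham. Integrins had 16 of 24 members higher, such as Itgb5 (1.77, SE 0.06) and the leukocyte chain Itgb2 (2.39, SE 0.10). The 4 meningeal markers were all higher, with sums of 89.7 to 172 CPM in KA and 64.8 to 75.2 CPM in sham, and the 4 red cell markers summed to 2.34 to 3.24 CPM in KA and 4.19 to 21.5 CPM in sham, and the part of either in these results was not tested. In the fit with all 9 libraries the collagen count was 13 higher.

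Latent TGF-beta signalling and WNT signalling also had more members higher than lower. Of 22 TGF-beta genes 15 were higher and 3 lower (1 lower without any 1 sham replicate): Tgfb1 stood at 21.3 ± 0.363 CPM in KA and 5.87 ± 0.944 CPM in sham, its receptor gene Tgfbr2 at 86.8 ± 1.14 CPM in KA and 19.6 ± 4.17 CPM in sham, and the binding proteins Ltbp1 and Ltbp3 rose by 1.38 and 0.99. Of 36 WNT genes 15 were higher and 4 lower (2 lower without sham replicate 1, sham replicate 3 or KA replicate 2). The secreted WNT antagonists Sfrp5, at 7.58 ± 2.08 CPM in KA and 0.270 ± 0.156 CPM in sham, and Dkk2, at 2.83 ± 0.490 CPM in KA and 0.291 ± 0.0710 CPM in sham, rose most among the genes named, and the receptors Fzd5 and Lrp5 rose by 1.92 and 1.02.

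Of 15 oligodendrocyte precursor genes 11 were higher and none lower, among them Matn4 (1.17, SE 0.09), Lhfpl3 (1.52, SE 0.13) and Neu4 (0.86, SE 0.12). Of 23 myelin and oligodendrocyte genes 6 were higher, which is close to the share over all genes. Trf, the transferrin made by oligodendrocytes, measured 565, 528 and 582 CPM in KA and 232, 300.2 and 203 CPM in sham (log2 fold change 1.19, SE 0.13), and Cldn11, a tight junction protein of myelin, 202, 203 and 191 CPM in KA and 118, 147 and 97.1 CPM in sham (0.72, SE 0.13). Sham replicate 2 was highest of the sham mice for both genes and for the list as a whole, with a median of 0.34 on the log2 scale above the sham mean. Without it 13 myelin genes were higher, with the replicate block 11, and with all 9 libraries 2.

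Cell division genes were low but partly higher. Of 42 cell cycle genes 18 were higher and 1 lower, with a median log2 fold change of 0.50. Top2a, a topoisomerase of dividing cells, measured 4.08, 4.67 and 5.00 CPM in KA and 0.624, 1.56 and 1.01 CPM in sham (2.10, SE 0.29), and Mcm3, of the replication helicase, 8.22, 7.62 and 11.1 CPM in KA and 2.75, 3.49 and 2.70 CPM in sham (1.59, SE 0.20). The cell cycle inhibitor Cdkn2c rose by 1.64 (SE 0.20) and Ccnd3 by 0.73 (SE 0.08). A separate list of 62 tubulin, kinesin and intermediate filament genes had 11 higher and 19 lower. Its member Kif18a, a kinesin of the mitotic spindle, measured 12.7, 8.79 and 15.6 CPM in KA and 0.624, 0.747 and 0.691 CPM in sham (4.15, SE 0.28). Genes of adult neurogenesis, the birth of new granule cells, had 5 of 22 higher and 4 lower, near the shares over all genes. Dcx, of young neurons, stood at 16.9 ± 3.37 CPM in KA and 27.6 ± 1.49 CPM in sham (-0.70, SE 0.14), and Neurod2 fell by 0.56 (SE 0.13). The higher count dropped to 2 or 3 without any 1 sham replicate or KA replicate 2 and to 1 with all 9 libraries, and the lower count to 2 without sham replicate 1 or 2.

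Many genes known to be induced by neuronal activity were higher 30 days after the injection. Of 40 immediate early genes 24 were higher and none lower, with a median log2 fold change of 0.59 (without KA replicate 3, 2 were lower). Bdnf, a neurotrophin, measured 257, 231 and 399 CPM in KA and 37.3, 37.5 and 36.7 CPM in sham (2.99, SE 0.19, adjusted p = 1.13e-05). Fosl2, an AP-1 transcription factor, measured 210.3, 231 and 309 CPM in KA and 79.1, 65.8 and 69.3 CPM in sham (1.81, SE 0.14). Dusp4, a phosphatase that ends MAP kinase signals, measured 54.4, 68.6 and 105 CPM in KA and 22.2, 17.9 and 21.05 CPM in sham (1.90, SE 0.22). In all 3 genes KA replicate 3 was highest. Ier5 rose by 1.54 (SE 0.11) and Dusp2 by 2.50 (SE 0.28). Arc, whose message moves to active synapses, was not past the threshold, at 99.9, 94.6 and 157 CPM in KA and 132, 113 and 101 CPM in sham. Of the 33 immediate early genes with a promoter, 1 (3.03%) held the AP-1 element TGANTCA before its start, against 10.3% of the genes at least 2-fold higher, 6.06% of those at least 2-fold lower and 5.51% of all tested genes with a promoter. The CRE, TGACGTCA, was present in 3 of the 33 (9.09%), in 1.45% of the genes at least 2-fold higher, in 1.82% of those at least 2-fold lower and in 2.87% of all. The elements were not confined to 1 list each. Of the 26 interferon-stimulated genes with a promoter 9 (34.6%) held the AP-1 element. The ISRE was present in 4 of the 33 immediate early genes (12.1%), in 3 of 24 neuropeptide and granin precursors (12.5%) and in 3.18% of all. Growth factor genes had 19 of 42 members higher and 7 lower, with Nrg1 and Gfra1, a receptor for the GDNF family, up by 1.62 and 1.47 and Igfbp5, which binds insulin-like growth factors, at 631 ± 21.3 CPM in KA and 205 ± 16.1 CPM in sham.

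Neuropeptide and granin precursors moved both ways: 12 of 29 were higher and 6 lower (3 lower with all 9 libraries). Several are known to be driven by CREB, a factor that binds the CRE, and 5 of the 24 with a promoter (20.8%) held that element, against 2.87% of all tested genes with one. The 5 are shown because they hold the same letters and did not move alike, and Pcsk1, Sst and Chgb were chosen for this after their values were seen.

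Cartpt (chr13:99900768-99900815, minus strand): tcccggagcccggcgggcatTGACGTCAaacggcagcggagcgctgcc

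Scg2 (chr1:79440067-79440114, minus strand): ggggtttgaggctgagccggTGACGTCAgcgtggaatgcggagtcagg

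Pcsk1 (chr13:75089759-75089806, plus strand): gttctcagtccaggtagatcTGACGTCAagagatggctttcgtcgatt

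Sst (chr16:23890865-23890912, minus strand): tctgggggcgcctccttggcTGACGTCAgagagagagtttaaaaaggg

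Chgb (chr2:132781550-132781597, plus strand): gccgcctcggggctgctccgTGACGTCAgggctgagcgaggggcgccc

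The element, in capitals, lies 40 to 104 bases before the RefSeq start on GRCm38.p6 and is palindromic, so both strands read the same. Cartpt, the precursor of the CART peptides, measured 33.8, 151 and 172 CPM in KA and 1.44, 1.25 and 1.07 CPM in sham. KA replicate 1 lay well below the other KA mice and still far above sham. Scg2, the precursor secretogranin II of dense-core vesicles, measured 936, 899 and 1304 CPM in KA and 177, 178 and 187 CPM in sham (log2 fold change 2.53, SE 0.14). Pcsk1, a protease that cuts such precursors, rose by 1.37 (SE 0.18). Sst, the peptide of a class of interneurons, measured 84.5, 149 and 105 CPM in KA and 161, 145 and 139.5 CPM in sham (-0.40, SE 0.18, adjusted p = 0.1), and Chgb, chromogranin B, 472, 424 and 543 CPM in KA and 573, 535 and 569 CPM in sham (-0.22, SE 0.09, adjusted p = 0.0724). The groups overlap for both and neither was past the threshold, though both passed it by DESeq2 (adjusted p = 0.0383 and 0.0376) and Chgb also with the replicate block (adjusted p = 0.0436). Without KA replicate 2 Sst was called lower (-0.65, adjusted p = 0.00242), and without KA replicate 3 Chgb was (-0.32, adjusted p = 0.00449). Of the peptide genes without a match, Pdyn, the precursor of dynorphins, measured 61.7, 55.2 and 57.7 CPM in KA and 13.2, 12.1 and 12.1 CPM in sham (2.22, SE 0.08). Trh measured 38.02, 40.8 and 84.8 CPM in KA and 0.499, 0.747 and 0.440 CPM in sham, Npy 74.0, 102 and 151 CPM in KA and 23.0, 24.5 and 24.0 CPM in sham, and Adcyap1 rose by 1.63 (SE 0.12). No mouse overlapped with the other group for any of these.

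Lists of neuronal cell types fell in part and not as one. Of 14 CA1 pyramidal genes 9 were lower and 1 higher (none higher without any 1 sham replicate, 2 without KA replicate 1), with a median log2 fold change of -0.82. Pou3f1, a transcription factor of CA1, measured 20.9, 17.6 and 17.4 CPM in KA and 53.2, 48.5 and 55.9 CPM in sham (-1.49, SE 0.10). Lefty1 and Spink8 fell by 1.96 and 1.69, while Wfs1, a common CA1 marker, was at 154 ± 28.9 CPM in KA and 127 ± 14.5 CPM in sham (0.28, SE 0.14, adjusted p = 0.127) and was called higher without KA replicate 1 (0.42, adjusted p = 0.0109). Of 18 CA3 and CA2 genes 10 were lower and 4 higher: Rgs14, of CA2, fell by 1.09 (SE 0.08) and Cdh24 by 1.84 (SE 0.14), and Ccdc3 stood at 79.7 ± 13.3 CPM in KA and 17.5 ± 2.13 CPM in sham (2.18, SE 0.13). Of 27 interneuron genes 14 were lower and 4 higher (2 higher without sham replicate 1 or 2). Kcnc2, a fast potassium channel, and Erbb4, the neuregulin receptor, fell by 1.14 and 1.05. Common interneuron markers went both ways. Gad2 and Vip were called higher (log2 fold changes 0.58 and 0.50), Slc32a1 and Pvalb lower (-0.62 and -1.12). Gad1 and Sst were not past the threshold. Dentate granule cell genes, with 6 of 16 lower and 4 higher, had a median near that of all genes. Bhlhe22 and Stxbp6 fell by 0.88 and 0.78, Pdzd2 rose by 1.21 (SE 0.18), and Calb1, a calcium buffer of granule cells, measured 65.6, 119 and 105 CPM in KA and 91.8, 96.2 and 107 CPM in sham without passing. Common dentate granule markers also went both ways. Prox1 was called higher (log2 fold change 0.58), and C1ql2 and Dsp were called lower (-1.13 and -2.28).

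Many genes of glutamate receptors and transmitter release were lower in KA. Of 17 ionotropic glutamate receptor subunits 12 were lower and 1 higher (none higher without any 1 sham replicate, 2 without KA replicate 1 or 3), with a median log2 fold change of -0.51. Gria1, an AMPA receptor subunit, measured 624, 688 and 587 CPM in KA and 1349, 1311 and 1459.6 CPM in sham (-1.12, SE 0.08). The NMDA receptor subunits Grin2a and Grin2b fell by 0.90 and 0.83, while Grin1, the subunit that every NMDA receptor needs, was at 555 ± 38.6 CPM in KA and 623 ± 36.5 CPM in sham (-0.17, SE 0.07, adjusted p = 0.0881) and was called lower without KA replicate 3 (-0.23, adjusted p = 0.0213). Among the 7 metabotropic receptors 3 were lower and 3 higher. Grm5, which couples to phospholipase C, fell by 0.81, and Grm7 and Grm4, which inhibit release, rose by 0.64 and 1.14. Of 41 synaptic vesicle and release genes 27 were lower and none higher, with a median of -0.38: Doc2b, Erc2, Pclo and Amph fell by 1.19, 0.82, 0.72 and 0.60. Slc17a7, the vesicular glutamate transporter, was not past the threshold, at 1474, 1616 and 2012 CPM in KA and 1730.1, 1543 and 1752 CPM in sham. Of 42 postsynaptic scaffold and adhesion genes 20 were lower and 2 higher (5 higher without KA replicate 1, 1 without any 1 of the other libraries), with Homer3 and Cntnap2 down by 1.17 and 1.21. Of 17 GABA-A and glycine receptor subunits 4 were lower (2 without sham replicate 1, sham replicate 3 or KA replicate 1) and 2 higher (1 without sham replicate 3). Gabrg3 fell by 0.60 (SE 0.09).

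Among ion channels more genes were lower than higher. Of 34 sodium and calcium channel subunits 21 were lower and 4 higher (2 higher without sham replicate 2 or 3), with a median log2 fold change of -0.46. Cacna1e, the pore of R-type calcium channels, measured 323, 329 and 305 CPM in KA and 679.9, 677 and 725 CPM in sham (-1.12, SE 0.06). Cacna1c and Scn3a fell by 0.60 and 0.66. Of 77 potassium channel genes 30 were lower and 14 higher: Kcnip2, which binds A-type channels, and Kcng3 fell by 0.76 and 0.95, and Kcnf1 and Kcnk6 rose by 1.04 and 1.76. Of 36 HCN, TRP and chloride channel genes 8 were lower, near the share over all genes, and 6 higher (5 lower with all 9 libraries). By at least 2-fold, 4 of them rose and 2 fell, and the largest rise was 3.27. Ano3, of a family of chloride channels and scramblases, fell by 1.27 (SE 0.07) and Trpc5 by 1.02 (SE 0.14). Among receptors for amines, acetylcholine and peptides 21 of 61 were lower and 11 higher (7 higher without sham replicate 1 or 2 and with all 9 libraries). Htr2a, a serotonin receptor, measured 42.2, 35.5 and 52.5 CPM in KA and 9.18, 8.03 and 9.42 CPM in sham (2.29, SE 0.15), whereas Drd5, a dopamine receptor, measured 4.97, 6.14 and 5.87 CPM in KA and 18.4, 16.4 and 20.2 CPM in sham (-1.70, SE 0.13). The muscarinic receptor gene Chrm3 fell by 1.15 (SE 0.09). Genes that guide axons moved in both directions, with 22 of 69 lower and 20 higher (13 higher with all 9 libraries): Slit1 and its receptor gene Robo1 fell by 1.02 and 1.24, and the repellents Sema3a and Efna5 rose by 2.83 and 1.96. Sema3a measured 21.9, 20.6 and 33.2 CPM in KA and 3.75, 3.92 and 2.95 CPM in sham. Protocadherins had 17 of 67 higher, near the share over all genes, with Pcdh11x up by 1.75 and Pcdhac2 down by 0.92.

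**Figure D4:**
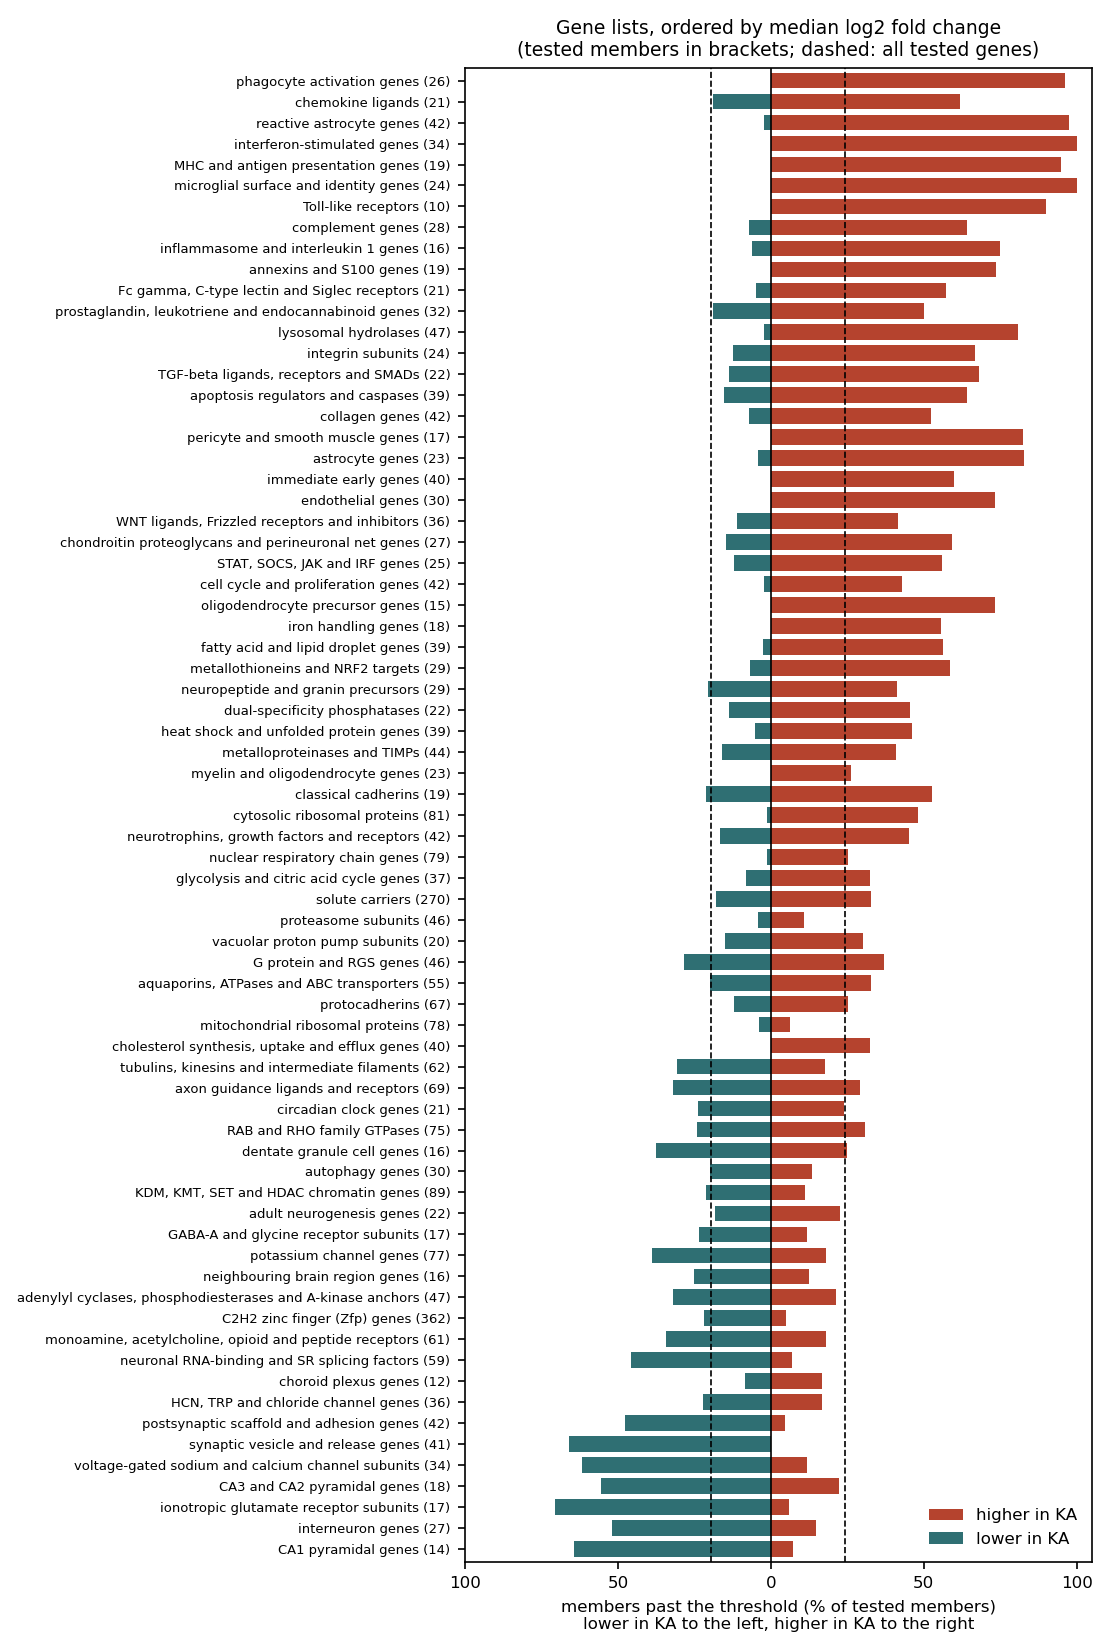
Percent of tested members called higher (red, right) or lower (green, left) in KA in each gene list with at least 10 tested members, ordered by median log2 fold change; dashed lines mark the shares over all tested genes, 24.3% higher and 19.4% lower. Immune, reactive astrocyte and lysosomal lists lie at the top, and lists of pyramidal cells, interneurons, glutamate receptors, channels and vesicle release at the bottom.

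Genes that every cell uses changed little in size. Of 81 cytosolic ribosomal protein genes 39 were higher and 1 lower, with a median log2 fold change of 0.18 (none lower without any 1 sham replicate or KA replicate 2, 2 without KA replicate 1), and 22, 24 and 24 were higher without sham replicate 1, 2 and 3. Rplp0 stood at 219 ± 7.33 CPM in KA and 162 ± 4.67 CPM in sham (0.44, SE 0.05). Mitochondrial ribosomal proteins had 5 of 78 higher and 3 lower (1 higher without sham replicate 2 or 3 and 3 without any 1 KA replicate, 1 lower without sham replicate 1 and none without sham replicate 3), well under the shares over all genes. Of 79 nuclear respiratory chain genes 20 were higher and 1 lower (2 lower without KA replicate 2 and none without any 1 of the other libraries), and 12, 11 and 11 were higher without sham replicate 1, 2 and 3. In glycolysis Hk2, the inducible hexokinase, and Pfkfb3, which speeds glycolysis, rose by 1.28 and 1.00, and Slc16a3, a lactate exporter, by 1.71, within a list that had 12 of 37 higher (7 without sham replicate 2 or 3).

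In the list of cholesterol genes 13 of 40 were higher: Apoe and Abca1, which load lipid onto particles, Npc2, which moves cholesterol out of lysosomes, and Srebf1, a regulator of lipid synthesis, rose by 1.79, 1.69, 1.72 and 1.05. None was lower in the comparison of all 6 libraries, but 12 were lower without KA replicate 3. Cyp51, a step of cholesterol synthesis, measured 55.9, 65.1 and 96.9 CPM in KA and 72.7, 73.5 and 68.0 CPM in sham, so KA replicate 3 lay above all sham mice and the other KA mice below. Without that replicate its log2 fold change was -0.24 (adjusted p = 0.0317). Of 39 fatty acid and lipid droplet genes 22 were higher and 1 lower (2 lower without KA replicate 2 or 3), with Plin2, the coat of lipid droplets, at 16.3 ± 1.10 CPM in KA and 4.23 ± 0.436 CPM in sham and Cpt1a, which admits fatty acids to mitochondria, up by 1.03 (SE 0.07). Of 29 metallothionein and NRF2 genes, which answer metals and oxidants, 17 were higher and 2 lower: Prdx6 measured 519, 520.4 and 491 CPM in KA and 167, 184 and 163 CPM in sham (1.58, SE 0.07), Mt1 rose by 1.74 (SE 0.10) and Nfe2l2, the factor NRF2 itself, by 1.63 (SE 0.10). Iron handling genes had 10 of 18 higher (and 1 lower without KA replicate 3), with the ferritin chain Ftl1 up by 1.09 and Hmox1, which breaks down haem, up by 1.61. Heat shock and unfolded protein genes had 18 of 39 higher and 2 lower (11 higher without sham replicate 3, 6 lower without KA replicate 3, 1 lower without sham replicate 1, sham replicate 3 or KA replicate 2), led by the small heat shock proteins and co-chaperone genes Hspb8, Bag3 and Cryab, up by 1.35, 1.88 and 1.00. Of 32 prostaglandin, leukotriene and endocannabinoid genes 16 were higher and 6 lower: Ptgs1 and Hpgds, enzymes of prostaglandin synthesis, rose by 1.41 and 1.79, Ptger4, a receptor for prostaglandin E2, stood at 6.15 ± 0.654 CPM in KA and 0.750 ± 0.223 CPM in sham, and Faah, which degrades endocannabinoids, fell by 0.93 (SE 0.07). Apoptosis genes had 25 of 39 higher and 6 lower. The receptors for tumour necrosis factor Tnfrsf1a and Tnfrsf1b rose by 2.08 and 1.74 and Hrk, a neuronal death activator, fell by 1.11 (SE 0.11). Bcl2a1b, a survival gene of myeloid cells whose relatives may share its reads, rose by 3.52 (SE 0.24).

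Lists of nuclear regulators differed in direction. Of 362 Zfp genes, zinc finger proteins of the C2H2 class, 79 were lower and 18 higher, with a median log2 fold change of -0.14 (48 lower without sham replicate 3, 10 higher without sham replicate 1 or 3). The lower share, 21.8%, was near that over all genes, and the higher share, 4.97%, was well under it. Of 59 RNA-binding and splicing factor genes 27 were lower and 4 higher, with a median of -0.16. Rbfox3 and Rbfox1, neuronal splicing factors, and Elavl2, which steadies neuronal messages, fell by 0.75, 0.66 and 0.84, and Ptbp1, which splices in non-neuronal cells, rose by 0.79 (SE 0.08). Chromatin genes had 19 of 89 lower, near the share over all genes, and 10 higher (6 higher without sham replicate 2 or 3). Kmt2a, a histone methyltransferase, was down by 0.70 and Hdac9, a histone deacetylase, up by 1.36. By the deposited transcription factor families, C2H2 genes had 110 of 493 lower, again near the share over all genes, and 33 higher. Homeobox genes had 18 of 51 lower and 9 higher, and bZIP genes 22 of 44 higher and 8 lower. Rel genes, the NF-kappa B family, had 8 of 10 higher and 1 lower. Clock genes had 5 of 21 members higher (3 with all 9 libraries) and 5 lower (3 without sham replicate 1), near the shares over all genes. Among 270 solute carriers 88 were higher and 48 lower, and Slc43a3, which carries purine bases, stood at 26.5 ± 2.71 CPM in KA and 0.749 ± 0.222 CPM in sham (5.13, SE 0.18). Slc11a1 and Slc15a3, carriers of phagocyte lysosomes, rose by 2.93 and 3.47. The GTPase genes Rac2 and Rab7b, of blood cells and phagocytes, rose by 2.04 and 3.11, within a list that had 23 of 75 higher and 18 lower (8 lower without sham replicate 1, 9 without sham replicate 3, 10 with all 9 libraries).

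The KEGG pathways of the deposited annotation, 320 with 15 to 300 tested genes, group the genes independently of the hand-written lists, though they share many genes with them and with each other. The highest median log2 fold change, 2.13, was that of Staphylococcus aureus infection, and those of allograft rejection and graft-versus-host disease were 2.12 and 2.11. Among those with the next highest medians was the complement and coagulation cascade (33 of 44 genes higher, 1 lower, median log2 fold change 1.397). Cytokine and receptor interaction had 86 of 136 higher and 19 lower, phagosome 74 of 130 and 16, lysosome 63 of 121 and 13, and extracellular matrix receptor interaction 44 of 79 and 9. Their medians were 0.85, 0.62, 0.33 and 0.69. The lowest median, -0.29, was that of phototransduction in the fly. Near that end lay the glutamatergic synapse, with 50 of 103 genes lower and 26 higher (median -0.22), long-term potentiation, with 30 of 63 lower and 13 higher (-0.21), and nicotine addiction, a pathway of transmitter receptors and channels, with 17 of 33 lower and 2 higher (-0.21).

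The KA mice varied more than the sham mice, and in different directions for different processes. Over 11453 genes with at least 5 CPM in both groups, the median SD of log2 CPM was 0.108 in KA and 0.071 in sham, and it was larger in KA for 68.2% of genes. Of the 228 genes at least 2-fold lower, KA replicate 3 was farthest from sham for 156 and KA replicate 1 for 41. Of the 1427 at least 2-fold higher, KA replicate 3 was farthest for 629, replicate 1 for 403 and replicate 2 for 395. Over the CA1 list the median level relative to sham was -1.10 on the log2 scale in KA replicate 3, -0.67 in replicate 1 and -0.65 in replicate 2, and over the immediate early genes it was 0.88 in replicate 3, 0.43 in replicate 1 and 0.50 in replicate 2. Microglial genes hardly varied, at 1.82, 1.88 and 1.90. Of the 8 genes with the largest spread of log2 CPM over the KA mice, 1 was Cartpt and 1 the unnamed gene 2210418O10Rik, which was not called over all 6 libraries and was called lower without KA replicate 3. Krt73, a keratin gene, measured 1.95, 5.16 and 17.9 CPM in KA and 5.18, 5.35 and 6.85 CPM in sham. Rem2, a GTPase induced by activity, measured 6.33, 4.61 and 25.3 CPM in KA and 15.7, 16.4 and 15.8 CPM in sham, so 2 KA mice lay below every sham mouse and the third above. Otof, a calcium sensor of vesicle release, measured 11.6, 3.32 and 2.04 CPM in KA and 11.5, 12.8 and 10.2 CPM in sham, and only KA replicate 1 reached the level of sham. Entpd4, whose near-identical copy may share its reads, measured 25.2, 3.32 and 13.3 CPM in KA and 10.05, 10.02 and 10.1 CPM in sham. Fndc9 and the chemokine gene Cxcl5 were called higher, with 1.89, 2.27 and 13.5 CPM and 6.92, 7.68 and 1.48 CPM in KA and 0.562, 1.93 and 0.565 CPM and 0.187, 1.25 and 0.00 CPM in sham, and neither was called with all 9 libraries or without sham replicate 1, nor Fndc9 without sham replicate 3 or KA replicate 3. Without KA replicate 3 Rem2 was called lower (-1.54, adjusted p = 6.1e-05), without KA replicate 1 Otof was called lower (-2.10, adjusted p = 0.00034), and without KA replicate 2 Entpd4 was called higher (0.94, adjusted p = 0.0174).

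**Figure D5:**
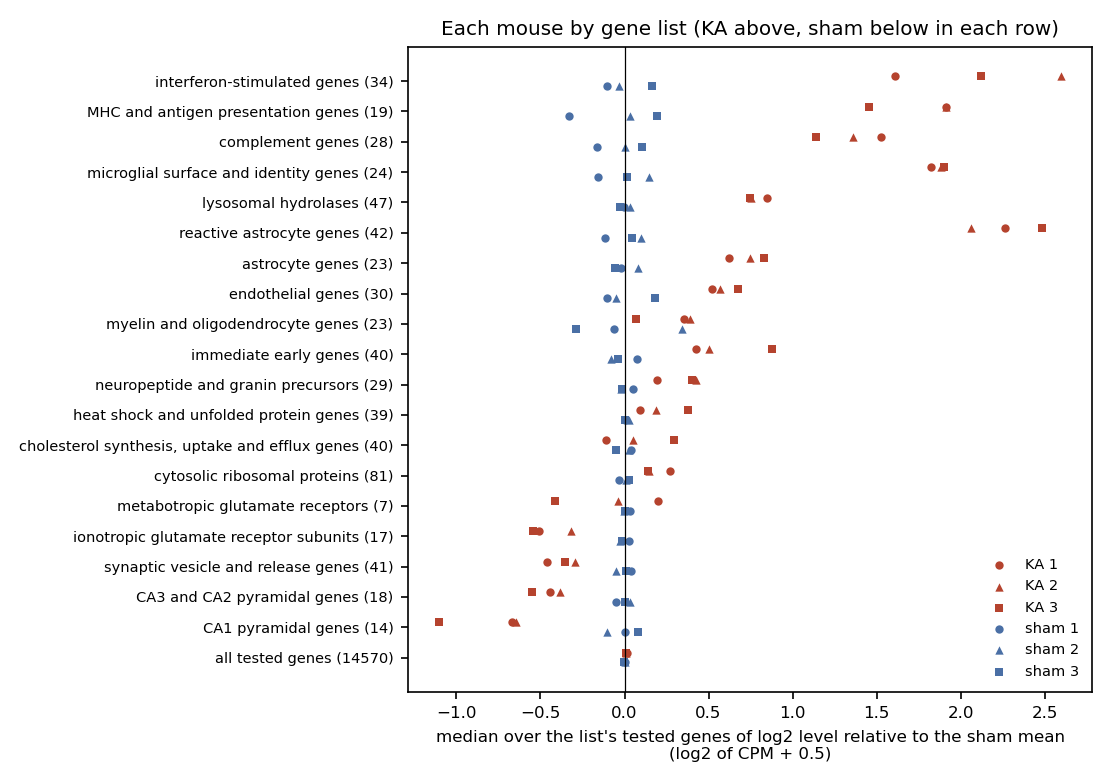
Median over each list's tested genes of the log2 level (of CPM + 0.5) relative to the sham mean, for KA mice (red, upper in each row) and sham mice (blue, lower), with symbols for replicates 1, 2 and 3; the number of genes is in brackets. KA mice lie close together for microglial and lysosomal genes and apart for interferon-stimulated, CA1, metabotropic glutamate receptor and cholesterol genes.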

How the data were processed

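Per the labels' protocols, total hippocampal RNA came from a TRIzol extraction. The deposited table holds, for each library, estimated counts per gene, FPKM and TPM made by the authors. The submitters' processing notes name Bowtie2, RSEM 1.3.1, DESeq2 1.4.5 and the build GRCm39, and the role of each is not given in the sources used here. The estimated counts, which can be fractional where genes share reads, were rounded to whole numbers, and FPKM and TPM entered no test. Genes were kept by edgeR's filterByExpr, scaled by TMM and tested with edgeR 4.0.16 (quasi-likelihood F test, R 4.3.3) on the 6 KA and sham libraries, with no batch term since no batch is labelled, and p-values were adjusted by Benjamini-Hochberg over all 14570 tested genes. SE is the log2 fold change divided by the square root of F. No source says how the animals were housed or processed beyond being separate mice. The p-values set the difference between groups against the spread among mice within a group. They do not cover a difference in housing or processing shared by a whole group. On simulated counts with known changes, 89.9% of 99 genes changed 2-fold and all 99 changed 4-fold were called. There were 10 false calls among the unchanged genes of the 14561 run. Every simulated gene had the same setting of spread and few genes changed, unlike in the data, so these figures need not hold for the data. Promoters were RefSeq's on GRCm38.p6, of 11549 tested genes. One line of the table was empty of values and left out.

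Named genes were, among those called, non-overlapping and at least 5 CPM in the higher group, the 10 largest rises and falls in fold and in CPM and the 8 smallest p. Added to these, with no such condition on level or overlap, were in each list up to 4 called genes of smallest p and up to 2 tested genes of largest p, and, among genes of at least 5 CPM in KA, called or not, the 8 of largest spread over KA mice. The members and lists were chosen with earlier results of these data known. The labels do not say that same-numbered KA and sham mice are pairs, so the numbers were not treated as pairs. Some genes that the rule names are not reported here.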

Additional observations from a re-analysis of the deposited data

How the results depend on the processing

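The comparison was refitted under 12 alternatives. The count of changed genes was 6420 with DESeq2's size factors, 6192 with library totals alone, 6397 with no filter on low counts, 5943 by DESeq2 1.42.0 and 4961 with all 9 libraries, and 4917 to 6415 with 1 library left out. Library totals alone made 61.9% of calls higher, against 55.5% with TMM. With replicate number as a block 6202 genes were called, and the correlations of same-numbered mice were -0.0028 to 0.0316, so the numbers give no pairing. None of the 5 counts over all genes moved by over 1.5 times. Of 1752 list counts under alternatives 180 did.

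The sign of 7 uncalled genes turned. The log2 fold change of Arc was -0.0047 and that of Cyp51 -0.0111 with the block, and that of Calb1 was 0.0045 with library totals. With 1 library left out, Arc ran from -0.24 to 0.16, Calb1 from -0.20 to 0.19, Cyp51 from -0.24 to 0.18, Lpl from -0.0581 to 0.23, Entpd4 from -0.28 to 0.94, Krt73 from -0.71 to 0.99 and Slc17a7 from -0.12 to 0.115. Cxcl5 also missed the threshold by DESeq2 (adjusted p = 0.0517), and Otof passed it with the block (-1.25, adjusted p = 0.0341). The cause was not tested. A count of 0 allows 0.183 to 0.186 CPM, and how well changes under 2-fold are detected was not simulated.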
